A study of Mus musculus with 24 samples.

Results

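Photoreceptors renew their outer segments every day, and the retinal pigment epithelium (RPE) engulfs the tips they shed, with a peak soon after the lights come on. The genes described here encode the receptors, ligands and signalling kinase of that uptake. They are the 3 TAM receptor kinases Mertk, Tyro3 and Axl, the ligands Gas6 and Pros1, the bridging protein Mfge8, the integrin subunits Itgav and Itgb5, and focal adhesion kinase (Ptk2). All 9 genes were chosen by name for this role and by no rule on their values, though earlier results of these data were known. They are 9 of the 19018 genes in the expression table, and all 9 were among the 18233 genes that entered the tests.

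The work of the uptake is divided between binding and engulfment. Mfge8 coats phosphatidylserine on the exposed outer segment tip and is held by integrin αvβ5 (Itgav and Itgb5) on the RPE surface, and mice without Itgb5 lose the daily burst of uptake. Ptk2 is activated downstream of that integrin and signals to Mertk, the receptor that drives engulfment, whose loss in rats and mice leaves debris under the retina and ends in photoreceptor death. Gas6 and Pros1, both vitamin K-dependent proteins, bridge phosphatidylserine to the TAM receptors, and either can serve Mertk in the mouse retina. Tyro3 modifies the effect of losing Mertk in mice, and Axl is best known from macrophages, dendritic cells and vessels.

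Whole eyes of male CBA/N mice were profiled by poly(A)-selected RNA-seq after 4 weeks under either of 2 regimes. Under SC the mice had 8 h of light and 16 h of dark at 10 °C, and under LW they had 16 h of light and 8 h of dark at 27 °C, so that day length and temperature differed together and their effects cannot be told apart. Collection ran every 4 h, from 2 h to 22 h past midnight, with 2 eyes per time and condition and 24 libraries in all. By the light schedule, the lit times were 10 and 14 h under SC and 6, 10, 14 and 18 h under LW. The mice were 10 weeks old at the start by the study's methods. The labels do not say whether both eyes of a group came from different animals, so every p-value here rests on a spread between eyes that may be partly technical.

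The library totals ran from 19543401 to 28859071 expected counts under LW and from 20164885 to 28447184 under SC. No member fell below 414 expected counts in any library. Any 2 libraries correlated at 0.976 or higher across genes. The genes listed as RPE markers were found in every eye, but whole eyes cannot show which cells made them. Rpe65, the isomerase of the visual cycle, stood at scaled counts of 2440 to 5098, and Rlbp1, a retinoid carrier, at 8683 to 10060. Best1 was the lowest of these markers, at 18.8 to 52.9. SC 6 h replicate 2 and SC 10 h replicate 2 also held liver transcripts, and the summed scaled count of 10 liver markers was 3155 and 486 there against at most 19.2 in any other eye. Member calls that were lost without these 2 eyes are given with their value without them. List counts are given both ways only for the markers between LW and SC, the daily courses and the first lit time. Elsewhere, also for the neighbouring genes between LW and SC, calls in the lists were both gained and lost without these 2 eyes. RPE, retina, lens, cornea and vessels were sequenced together, so that fewer cells of a type and less RNA per cell cannot be told apart.

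The promoter sequences of the 3 sister receptors and of Mfge8 show the start regions of the members whose levels differed between times or between light and dark beside those of Mertk and Tyro3, which passed no test. RefSeq promoters on GRCm38.p6 were matched for 8 of the 9 members, and Ptk2 had no entry. Each is the 250 bases before the listed start, 5′ to 3′ on the coding strand. The listed start need not be the end of the gene span given below. The windows of Tyro3 and Itgav lie inside those spans, and so does most of the Axl window. Capitals mark the SP1 box, GGGCGG or its reverse complement.
Axl (chr7:25788734-25788983, minus strand): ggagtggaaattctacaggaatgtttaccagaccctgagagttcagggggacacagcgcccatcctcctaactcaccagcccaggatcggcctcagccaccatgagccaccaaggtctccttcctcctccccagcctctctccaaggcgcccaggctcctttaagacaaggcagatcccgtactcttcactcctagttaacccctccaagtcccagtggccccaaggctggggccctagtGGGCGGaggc
Mertk (chr2:128698665-128698914, plus strand): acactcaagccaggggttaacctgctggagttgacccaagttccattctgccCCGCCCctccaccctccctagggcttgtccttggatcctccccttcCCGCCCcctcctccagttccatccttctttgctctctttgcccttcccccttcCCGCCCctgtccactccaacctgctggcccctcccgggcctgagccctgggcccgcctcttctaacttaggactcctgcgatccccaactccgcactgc
Tyro3 (chr2:119799264-119799513, plus strand): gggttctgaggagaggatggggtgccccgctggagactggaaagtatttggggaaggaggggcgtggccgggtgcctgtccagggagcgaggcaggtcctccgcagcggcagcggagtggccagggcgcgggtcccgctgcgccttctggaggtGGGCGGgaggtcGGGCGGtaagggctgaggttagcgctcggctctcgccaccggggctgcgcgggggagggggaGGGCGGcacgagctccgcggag
Mfge8 (chr7:79149061-79149310, minus strand): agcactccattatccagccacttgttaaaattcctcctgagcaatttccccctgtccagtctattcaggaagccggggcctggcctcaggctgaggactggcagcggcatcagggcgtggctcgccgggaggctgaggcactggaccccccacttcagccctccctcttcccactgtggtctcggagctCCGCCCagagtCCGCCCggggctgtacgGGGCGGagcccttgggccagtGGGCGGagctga

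The 8 windows held 54.8% to 73.2% G and C, beside a median of 52.4% over all promoters, and the SP1 box is made of G and C alone. The SP1 box occurred in 7 of the 8 promoters, all but that of Itgav, and in 32.7% of the 32851 promoters of that length. It occurred once in the Axl window, 3 times each in those of Mertk and Tyro3 and 4 times in that of Mfge8. None of the 8 windows held a CACGTG E-box, a TGACGTCA cyclic AMP element, a TGANTCA AP-1 site, an AGGTCA ROR element or a TAATCC site of CRX and OTX factors on either strand. These 5 motifs occurred in 6.02%, 1.55%, 6.75%, 14.0% and 6.25% of all promoters. A match describes letters only, and the lack of one says nothing of the factor.

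Gas6 and Mfge8 were the most abundant of the members, while the third ligand, Pros1, was among the 5 lowest. On the scale of scaled expected counts per kilobase of all annotated exons, averaged over 24 eyes, Gas6 stood at 2833 ± 172 (SD, n = 24 eyes) and Mfge8 at 1286 ± 74.5. Itgb5 followed at 958 ± 52.2 and Axl at 476 ± 34.4. The other 5 members lay close together, with Itgav at 153 ± 21.3, Pros1 at 151 ± 11.8, Ptk2 at 136 ± 8.51, Tyro3 at 127 ± 8.20 and Mertk at 116 ± 7.72. The ranges of the first 4 over eyes did not overlap each other, whereas those of the last 5 overlapped from each neighbour to the next. On this scale Axl stood above both of its sister receptors.

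**Figure D1:**
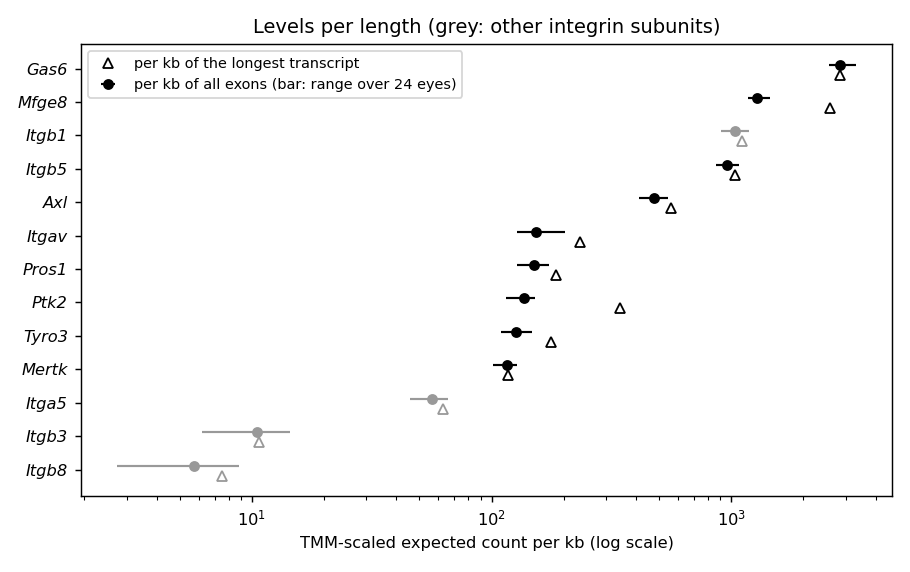
Scaled expected count per kb on a log axis for the 9 members (black) and 4 other integrin subunits (grey). Circles are means per kb of all exons with the range over 24 eyes, and triangles are means per kb of the longest transcript. Gas6 is highest at 2833 and Mertk lowest of the members at 116 on the exon scale.

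The exon length decided part of that order. Per kilobase of the longest transcript, Ptk2 rose to 343 and passed Itgav at 234, Pros1 at 186 and Tyro3 at 176 (152 to 204 over eyes), while Mertk stayed lowest at 117 (102 to 129) and Gas6 highest at 2833. Mfge8 stood at 2591 on that scale, and its range over eyes (2354 to 2935) overlapped that of Gas6 (2565 to 3300). Of the other integrin subunits, Itgb1, the common β subunit, stood at 1038 per kilobase of exons. Itga5 (56.4), Itgb3 (10.5) and Itgb8 (5.72) were all lower than Itgb5.

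Whether SC and LW changed the system was asked first of the average over the 6 times. No member passed the test: 0 of 9 were called by limma at an adjusted p under 0.05, against 9.49% of all genes tested (1730 of 18233). At an unadjusted p under 0.05 the counts were 2 members, Gas6 and Itgb5, and 4550 genes. The median size of the log2 difference was 0.04 over the members and 0.07 over all genes.

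**Figure D2:**
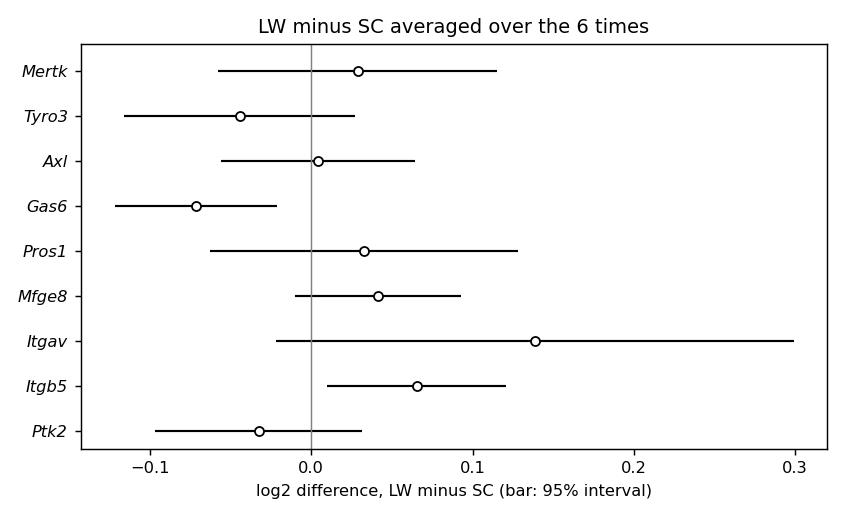
log2 difference between LW and SC, averaged over the 6 times, for each member, with its 95% interval. Open circles mark an adjusted p of 0.05 or more, and all 9 members are open. Itgav has the widest interval (-0.02 to 0.30).

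Among the receptors, Mertk (gene ID 17289, chr2:128698915-128803162, plus strand) ran from 443 to 554 scaled counts under LW, with a median of 510, and from 440 to 541 under SC, with a median of 494. The LW to SC ratio was 1.02, with a 95% interval of 0.961 to 1.08 (limma adjusted p = 0.72). Tyro3 (gene ID 22174, chr2:119797740-119818104, plus strand) ran from 677 to 859 under LW, with a median of 766, and from 742 to 911 under SC, with a median of 795. Its ratio was 0.970 (0.923 to 1.02, adjusted p = 0.46). Axl (gene ID 26362, chr7:25756500-25788924, minus strand) had nearly the same median in both conditions, 2418 under LW and 2417 under SC. Its ratio was 1.003 (0.962 to 1.05, adjusted p = 0.95), and the sign of its log2 difference changed with single eyes. The eyes of both conditions overlapped for all 3 receptors.

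Among the ligands, Gas6 (gene ID 14456, chr8:13465374-13494535, minus strand) came nearest to a call. It ran from 6536 to 7524 under LW, with a median of 7024, and from 6803 to 8409 under SC, with a median of 7316. The LW to SC ratio was 0.952 (0.919 to 0.986, limma adjusted p = 0.067), and 4 SC eyes lay above every LW eye. Both LW eyes were below both SC eyes at 2, 14 and 18 h, but the share of all genes that separate so was not counted. Among the members, both LW eyes of Mfge8 were above both SC eyes at 3 times and below them at 1. Gas6 passed when 1 eye was left out, namely replicate 2 of SC 14 h (adjusted p = 0.028), replicate 1 of SC 18 h (0.032), or replicate 1 of LW at 18 h (0.028) or 22 h (0.049), without the eyes of 22 h (0.032) and with scaling by library totals (0.039).

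Pros1 (gene ID 19128, chr16:62854307-62929346, plus strand) ran from 562 to 706 scaled counts under LW and from 520 to 687 under SC, with a ratio of 1.02 (0.957 to 1.09, limma adjusted p = 0.71). Mfge8 (gene ID 17304, chr7:79133768-79149060, minus strand) ran from 5651 to 6480 under LW and from 5486 to 6840 under SC, with a ratio of 1.03 (0.993 to 1.07, adjusted p = 0.31). For both genes the eyes of the conditions overlapped.

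In the integrin arm, Itgb5 (gene ID 16419, chr16:33829665-33949338, plus strand) ran from 3187 to 3820 scaled counts under LW and from 3079 to 3654 under SC. Its LW to SC ratio was 1.05 (1.01 to 1.09, limma adjusted p = 0.13). Both LW eyes lay above both SC eyes at 10 and 22 h, but the share of all genes that separate so was not counted. Itgav (gene ID 16410, chr2:83722303-83806917, plus strand) had the largest difference of the members and the largest spread. Its LW eyes ran from 1383 to 2176 and its SC eyes from 1367 to 1931, and 4 LW eyes lay above every SC eye. The ratio of 1.101 (0.985 to 1.23) did not pass (adjusted p = 0.27), with a coefficient of variation of 15.3% over the LW eyes. Ptk2 (gene ID 14083, chr15:73205102-73423820, minus strand) ran from 1483 to 1794 under LW and from 1361 to 1739 under SC, at a ratio of 0.978 (0.935 to 1.02, adjusted p = 0.56).

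Markers of other cell types were called between the conditions, and the share to read their counts against is again 9.49%. Of 10 RPE markers, 4 were lower under LW (Ttr, Rpe65, Stra6 and Krt18), and their summed scaled count ran from 48070 to 55300 under LW and from 52610 to 58620 under SC. Of 12 macrophage and microglia markers 3 were lower, with sums of 4100 to 4987 under LW and 4432 to 5691 under SC. Of 8 corneal and conjunctival epithelium markers 7 were lower, with sums of 225900 to 327000 under LW and 305300 to 356800 under SC. Of 7 lens markers 5 were higher, with sums of 770000 to 882900 under LW and 687900 to 847700 under SC. Of 9 smooth muscle and fibroblast markers 3 were higher, of 10 rod markers 3 were higher and 1 lower, of 8 Müller glia markers 3 were lower, and of 8 vascular endothelium and 10 liver markers 0 were called. Apart from the liver list, every marker was above 0 in each eye. The sums of both conditions overlapped for each of these lists, and the same counts were called without the 2 SC eyes that held liver transcripts. The part of the markers in the values of the members was not tested.

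The LW minus SC difference could also vary between times. None of the 9 members passed that test, against 4.98% of all genes (908), and 1 member, Mfge8, and 3364 genes had an unadjusted p under 0.05. Mfge8 had the smallest adjusted p of the members in it (limma, 0.11), followed by Gas6 (0.30) and Tyro3 (0.36).

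Taken time by time, 1 of the 54 pairs of member and time passed, Mfge8 at 2 h. The share of all genes called was 3.64% at that time, and 2.8%, 0.51%, 0.176%, 1.56% and 2.91% at the later times in order. At 2 h, when both conditions were dark, the LW eyes held 6455 and 6480 scaled counts of Mfge8 and the SC eyes 5518 and 5589. The LW eyes were higher by 0.22 on the log2 scale (SE 0.06, limma adjusted p = 0.044). At 14 h, when both were lit, the order was the other way, with 5720 and 6230 in the LW eyes and 6840 and 6347 in the SC eyes (log2 difference -0.14, SE 0.06, adjusted p = 0.53). The call at 2 h was near the threshold: it was lost without any 1 of the 4 eyes of 2 h (adjusted p 0.13 to 0.22), without either LW 10 h eye, SC 18 h replicate 2 or either SC 22 h eye (0.05 to 0.06), and without the 2 SC eyes that held liver transcripts (0.062). At 2 h, 5 of the 8 corneal and conjunctival markers were also called, all lower under LW, as were 3 of 10 rod markers, 1 higher and 2 lower, 1 of 12 macrophage and microglia markers (Itgam, lower) and 1 of 9 smooth muscle and fibroblast markers (Tagln, higher). Their part was not tested.

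**Figure D3:**
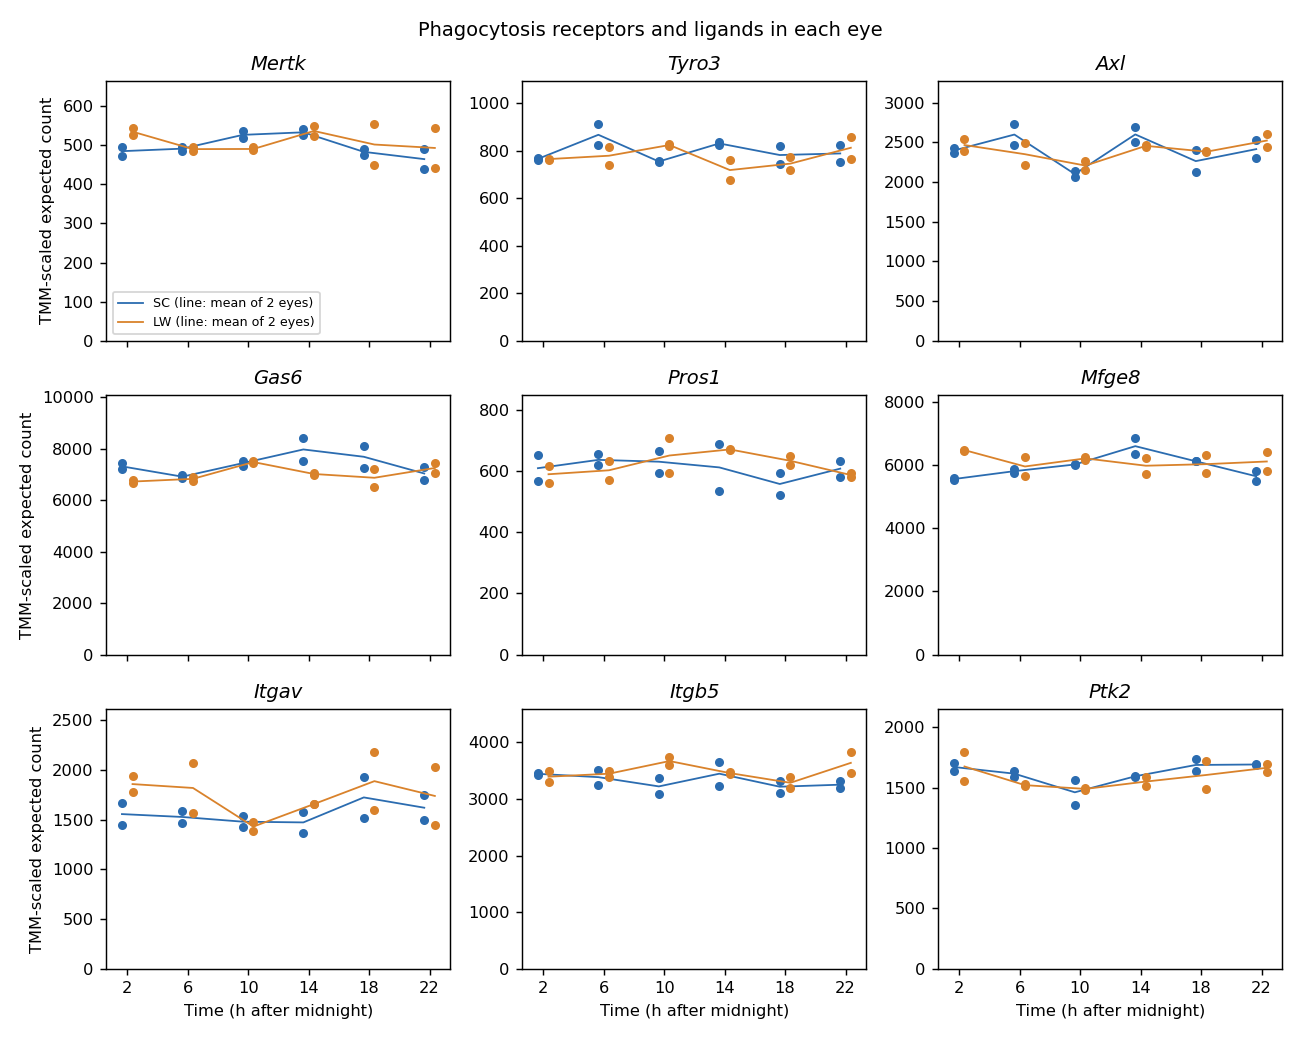
TMM-scaled expected count of each member (vertical axes from 0) against time after midnight. Points are single eyes of SC (blue) and LW (orange), and lines join the means of the 2 eyes. Axl under SC dips at 10 h (2134 and 2068), and Mfge8 under SC peaks at 14 h (6840 and 6347).

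The daily course was next asked within each condition. Under LW 0 of the 9 members varied between the 6 times, against 19% of all genes (3467), and at an unadjusted p under 0.05 the counts were 0 members and 5998 genes. Under SC 1 of 9 members varied, Axl, against 10.7% of all genes (1960), so that the members' share was near the background. The adjusted p for Axl under SC was 0.024 in limma, followed by Mfge8 (0.055) and Gas6 (0.13). The other 6 members had adjusted p-values of 0.27 to 0.91 under SC, and all 9 had values of 0.29 to 0.72 under LW. A test of the difference in daily course between SC and LW was not passed by Axl (adjusted p = 0.47).

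The Axl eyes under SC were lowest at 10 h. From 2 h on, the pairs of SC eyes held 2432 and 2364 scaled counts, 2728 and 2470 (6 h), 2134 and 2068 (10 h), 2699 and 2503 (14 h), 2402 and 2127 (18 h), and 2301 and 2530 (22 h). Both eyes of 10 h were thus lower than every SC eye of another time but SC 18 h replicate 2. The pairs of LW eyes held 2393 and 2541, 2489 and 2214 (6 h), 2263 and 2153 (10 h), 2468 and 2446 (14 h), 2379 and 2387 (18 h), and 2604 and 2444 (22 h). The lowest LW eye was also one of 10 h, but SC spanned the wider range. The call under SC was lost without SC 6 h replicate 1 (limma adjusted p = 0.060), SC 10 h replicate 1 (0.079), SC 10 h replicate 2 (0.13) or SC 14 h replicate 1 (0.066), without the eyes of 10 h (0.30) or 14 h (0.063), and without the 2 SC eyes that held liver transcripts (0.11).

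Gas6 and Mfge8 had their highest SC means at 14 h. Gas6 stood at 8409 and 7547 scaled counts at 14 h and at 6987 and 6852 at 6 h, without passing the test. Mfge8 went from 5518 and 5589 at 2 h to 6840 and 6347 at 14 h and back to 5486 and 5797 at 22 h. It passed under SC when the filter on low genes was raised to a mean scaled count of 10 (limma adjusted p = 0.043) and with scaling by library totals (0.042).

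Since uptake follows lights on, the first lit time was compared with the last dark time, which is 6 h against 2 h under LW and 10 h against 6 h under SC. Averaged over both conditions, 1 of 9 members passed, Axl, against 3.63% of all genes (661). At an unadjusted p under 0.05 the counts were 2 members, Axl and Ptk2, and 3064 genes. Axl fell by 0.19 on the log2 scale (SE 0.05, 95% interval -0.29 to -0.08, limma adjusted p = 0.038), which is a change of -12.2%. The times compared also differ in clock time, so light cannot be told apart from time of day.

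The value was larger within SC than within LW. Within SC 1 of 9 members was called, again Axl, against 5.94% of all genes, and it fell by 0.31 from 2728 and 2470 scaled counts at 6 h to 2134 and 2068 at 10 h (SE 0.07, limma adjusted p = 0.013). Within LW 0 of 9 members were called, against 2.95% of all genes, with 0 members and 2782 genes at an unadjusted p under 0.05. The LW eyes of Axl overlapped, with 2393 and 2541 at 2 h and 2489 and 2214 at 6 h (log2 difference -0.07, SE 0.07, adjusted p = 0.70). The contrast itself was not shown to differ between conditions: the LW minus SC difference for Axl was 0.23 (SE 0.10, adjusted p = 0.20), and 0 of 9 members passed it against 4.5% of all genes (1 member, Axl, and 3375 genes at an unadjusted p under 0.05).

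The averaged call for Axl was lost without the 2 SC eyes that held liver transcripts, one at each end of the SC contrast, although the value was as large (-0.21, limma adjusted p = 0.12, and -0.35 within SC, adjusted p = 0.14). It was also lost without any 1 of 10 eyes, which were both SC 2 h eyes (adjusted p = 0.051 each), both LW 2 h eyes (0.053 and 0.16), SC 6 h replicate 1 (0.15), LW 6 h replicate 2 (0.16), both SC 10 h eyes (0.069 and 0.13), LW 10 h replicate 2 and LW 14 h replicate 2 (0.051 each). Within SC it was lost without SC 6 h replicate 1 (0.14) or SC 10 h replicate 2 (0.13).

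Markers of several other cell types differed in the same step, in which 5.94% of all genes were called. From 6 h to 10 h under SC, 4 of 12 macrophage and microglia markers fell, the complement genes C1qa, C1qb and C1qc and the receptor Csf1r, with a median log2 difference of -0.36 over the list. Their summed scaled count was 5460 and 5691 in the SC eyes of 6 h and 4434 and 4509 in those of 10 h. Of 8 vascular endothelium markers 3 fell (Kdr, Cdh5 and Vwf; median -0.29), from sums of 7546 and 7058 to 6298 and 5912. Smooth muscle and fibroblast markers had the lowest median of these lists (-0.45) with 0 of 9 called, at sums of 78721 and 75124 at 6 h and 58120 and 38829 at 10 h. Of 8 Müller glia markers 1 fell (Slc1a3), and of 10 rod markers 3 rose (Sag, Pde6b and Cngb1). For RPE markers the sums were 55546 and 53484 at 6 h and 54253 and 55643 at 10 h, and 1 of 10, Krt18, was called, higher.

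Without the 2 SC eyes that held liver transcripts, 0 markers of the macrophage, endothelial, smooth muscle, Müller glia and RPE lists were called in that step, and 1 rod marker was (Sag). The medians were then -0.40 over the macrophage list, -0.25 over the endothelial list and -0.19 over the smooth muscle and fibroblast list. At 14 h under SC, when Axl stood at 2699 and 2503, the macrophage sums of 4895 and 5237 were above those of 10 h. The endothelial sums of 5980 and 6291 overlapped those of 10 h. Within LW no marker of the macrophage, endothelial, smooth muscle or RPE lists was called between 2 and 6 h. All markers of these lists were above 0 in each eye, and their part in the Axl value was not tested.

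**Figure D4:**
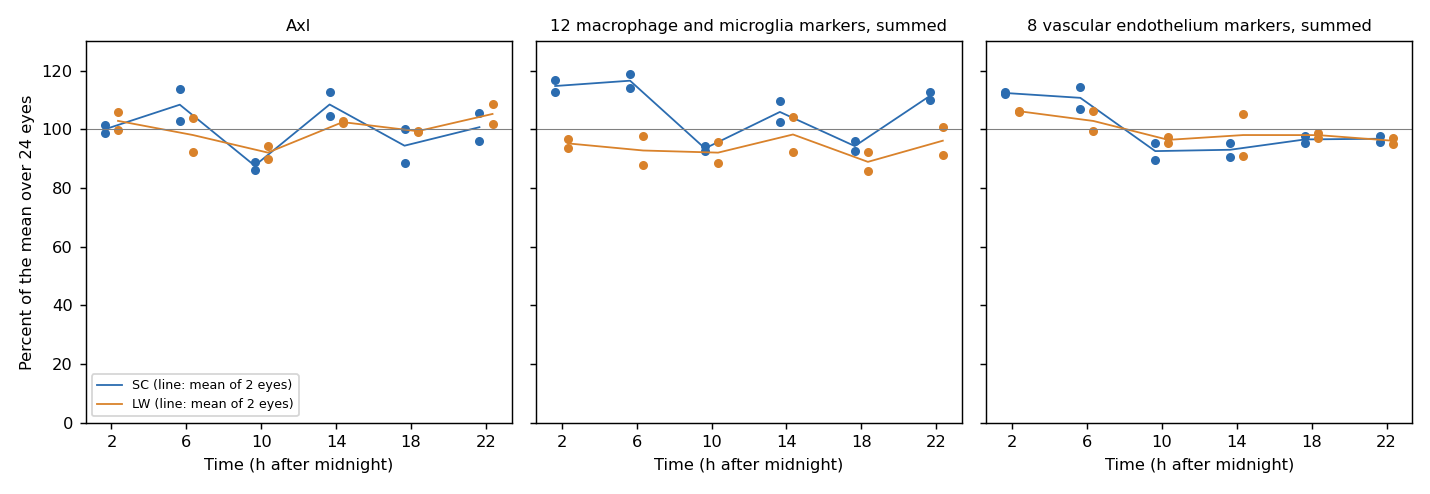
Axl (left), the sum of 12 macrophage and microglia markers (middle) and the sum of 8 vascular endothelium markers (right), each as a percent of its mean over 24 eyes, against time after midnight. Points are single eyes of SC (blue) and LW (orange), and lines join the means of the 2 eyes. All 3 are lower at 10 h than at 6 h in both SC eyes. At 14 h the SC eyes are higher again for Axl (2699 and 2503 scaled counts) and for the macrophage sum (4895 and 5237). The endothelial sums of 14 h (5980 and 6291) overlap those of 10 h.

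The sister receptors had no such call. Tyro3 stood at 911 and 823 scaled counts in the SC eyes of 6 h and at 756 and 752 in those of 10 h, so that its eyes did not overlap either (log2 difference -0.20, SE 0.08), but the limma adjusted p was 0.19. Mertk stood at 497 and 486 and then at 518 and 536 (0.10, SE 0.10, adjusted p = 0.66). Ptk2 had differences of -0.14 within LW and -0.15 within SC (SE 0.08 each), and -0.14 averaged (SE 0.05, adjusted p = 0.16).

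All lit times were then set against all dark times. Lit and dark eyes of a condition also differed in clock time. Light therefore cannot be told apart from time of day in this or any later contrast of lit and dark. Averaged over both conditions 1 of 9 members passed, Ptk2, against 16.5% of all genes (3002), so that the members' share did not exceed the background. Ptk2 fell by 0.12 in light (SE 0.03, 95% interval -0.19 to -0.05, limma adjusted p = 0.012), a change of -8.08%. Under LW the 8 lit eyes ran from 1483 to 1723 scaled counts with a median of 1516, and the 4 dark eyes from 1560 to 1794 with a median of 1666. Under SC the 4 lit eyes ran from 1361 to 1601 with a median of 1577, and the 8 dark eyes from 1593 to 1739 with a median of 1666. The lit eyes were thus lower in both conditions, with an overlap in each, and the difference between conditions was 0.01 (SE 0.07, adjusted p = 0.97).

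The Ptk2 call was lost without LW 2 h replicate 1 (limma adjusted p = 0.061) or SC 10 h replicate 1 (0.060), and without the eyes of 2 h (0.051), 10 h (0.21) or 22 h (0.051). In the same comparison 4 of 12 macrophage and microglia markers, 2 of 8 endothelial markers and 2 of 9 smooth muscle and fibroblast markers fell, 3 RPE markers fell and 1 rose, 2 of 8 Müller glia markers fell, 3 of 8 corneal markers rose, and of 10 rod markers 5 rose and 2 fell. Ptk2 is expressed in many cell types, and the part of these lists was not tested.

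**Figure D5:**
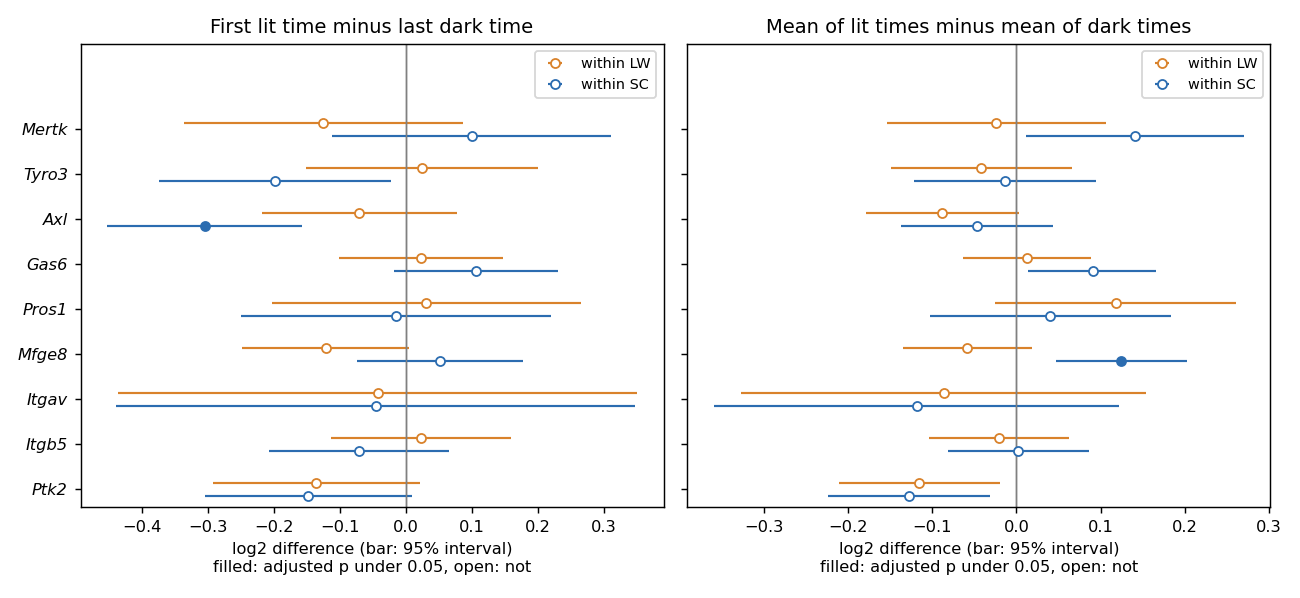
log2 differences of the 9 members with 95% intervals, for the first lit minus the last dark time (left) and for lit minus dark times (right), within LW (orange) and within SC (blue). Filled points passed at an adjusted p under 0.05. The 2 filled points are Axl on the left (-0.31 within SC) and Mfge8 on the right (0.12 within SC).

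Within the conditions alone, 0 of 9 members passed lit against dark under LW, against 10.8% of all genes, with 1 member, Ptk2, and 4308 genes at an unadjusted p under 0.05. Under SC 1 of 9 passed, against 7.64%, and here it was Mfge8. Its 4 lit SC eyes ran from 6005 to 6840 scaled counts with a median of 6184, and its 8 dark SC eyes from 5486 to 6118 with a median of 5770. Mfge8 was higher in light under SC by 0.12 on the log2 scale (SE 0.04, limma adjusted p = 0.042), and the value under LW was -0.06 (SE 0.04, adjusted p = 0.37). The difference between conditions of -0.18 (SE 0.05) did not pass (adjusted p = 0.11), and 0 of 9 members passed it against 0.905% of all genes (1 member, Mfge8, and 2112 genes at an unadjusted p under 0.05). Without the eyes of 14 h the value under SC was 0.06 (adjusted p = 0.46), and without the 2 eyes that held liver transcripts it was 0.12 (adjusted p = 0.17). The call was lost in 11 of 24 fits without 1 eye (adjusted p 0.051 to 0.20), namely either eye of SC at 2, 10 or 18 h, replicate 2 of SC at 6 h and of LW at 2 h, or replicate 1 of SC at 14 and 22 h and of LW at 10 h. Of the rod markers 5 of 10 rose and 2 fell in the same contrast. In it 2 of 12 macrophage and microglia markers and 2 of 8 endothelial markers also fell. So did 1 of 9 smooth muscle and fibroblast markers (Tagln) and 1 of 8 Müller glia markers (Slc1a3), while 0 of 10 RPE markers were called. The part of these lists was not tested.

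Mertk was the 1 member of 9 whose lit and dark eyes did not overlap under SC, which 2.76% of all genes did. Its 4 lit SC eyes held 518 to 541 scaled counts and its 8 dark SC eyes 440 to 497. The log2 difference of 0.14 (SE 0.06) did not pass in limma (adjusted p = 0.20). Under LW the 8 lit eyes held 450 to 554 and the 4 dark eyes 443 to 544, with a difference of -0.02 (SE 0.06, adjusted p = 0.88). No member separated under LW (0 of 9), where 3.73% of all genes did. Gas6 in SC stood at 7349 to 8409 in the lit and 6803 to 8113 in the dark eyes (0.09, SE 0.04, adjusted p = 0.15).

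The neighbours of the system were described by 4 lists of 56 genes, all of which were tested, and their counts between LW and SC are read against the same 9.49% of all genes. Of 17 genes listed as other receptors and bridging proteins, the proteases Adam10 and Adam17 among them, 2 were called between LW and SC. Both were lower under LW. Lgals3, a galectin that can bridge to Mertk, stood at a mean scaled count of 3033 under LW and 3739 under SC (log2 difference -0.30, SE 0.03, limma adjusted p = 1.6e-07), a call kept in all 39 alternatives. Itgb8, a partner of Itgav that activates TGF-beta, stood at 56.1 and 70.3 (-0.37, SE 0.11, adjusted p = 0.029). The Itgb8 call was lost in 9 of 24 fits without 1 eye and without the 2 eyes that held liver transcripts (adjusted p = 0.083). The median of the list was 0.00, beside 0.00 over all genes.

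Of 7 genes of phosphatidylserine exposure, 1 was called, Atp11a, a flippase, higher under LW (10810 against 10300, log2 difference 0.07, SE 0.02, limma adjusted p = 0.024). Without the eyes of 2 h it was 0.05 (adjusted p = 0.24). Of 17 genes of engulfment signalling and motors, 2 were called. Anxa2, an annexin with a part in early phagosome handling, was lower under LW (13150 against 14790, -0.17, SE 0.02, adjusted p = 0.0001, kept in all 39 alternatives). Elmo1, which with Dock1 activates Rac1, was higher (1268 against 1190, 0.09, SE 0.03, adjusted p = 0.029), a call lost in 7 of 24 fits without 1 eye and without the 2 eyes that held liver transcripts (0.056). Of 15 genes of phagosome maturation and digestion, 1 was called, the lysosomal membrane gene Lamp2, higher under LW (3691 against 3111, 0.24, SE 0.07, adjusted p = 0.045), which 18 of 24 fits without 1 eye did not call, nor did the fit without those 2 eyes (0.050). The medians of these 3 lists were -0.03, 0.00 and -0.01.

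In the daily course, the shares of all genes called were 19% under LW and 10.7% under SC. Under LW 7 of the 17 receptors and bridging proteins varied (Sirpa, Itgb8, Lrp1, Cd36, Cd47, Adgrb1 and Tub), 1 of 7 genes of phosphatidylserine exposure (Atp11a), 5 of 17 signalling and motor genes (Anxa2, Bcar1, Myh9, Elmo1 and Ezr) and 2 of 15 phagosome genes (Mreg and Mitf). Under SC the counts were 5 (Sirpa, Tulp1, Anxa5, the protease Adam17 and Cd81), 1 (Atp11a), 3 (Elmo1, Myh9 and Pik3ca) and 1 (Mitf). Without the 2 eyes that held liver transcripts the counts were 6, 1, 6 and 1 under LW and 2 (Sirpa and Adam17), 1, 2 (Myh9 and Pik3ca) and 0 under SC. Elmo1 under SC then had an adjusted p of 0.072, and Mitf one of 0.11 under SC and 0.052 under LW. Sirpa, a receptor that restrains phagocytosis on binding Cd47, varied under both (limma adjusted p = 0.00073 under LW and 0.0015 under SC), from group means of 4110 at 2 h to 4938 at 10 h under SC and from 4036 at 6 h to 4909 at 10 h under LW. Atp11a also varied under both (0.0060 and 0.00061), lowest at 6 h in each (9366 under SC and 9790 under LW). Tulp1, a bridging ligand of Mertk that photoreceptors make, varied under SC (adjusted p = 0.014, but 0.072 without the 2 eyes that held liver transcripts), with a group mean of 15830 at 6 h and 18930 at 10 h.

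Between the last dark and the first lit time, 2 of the 56 neighbours passed, both lower in light, a share near the 3.63% of all genes. Lrp1, a large endocytic receptor, fell by 0.18 (SE 0.04, limma adjusted p = 0.027), and Myo7a, the motor that carries phagosomes and melanosomes in the RPE, fell by 0.26 (SE 0.07, adjusted p = 0.041). Both calls were lost without the 2 SC eyes that held liver transcripts (adjusted p = 0.13 and 0.18), and in 5 and 13 of 24 fits without 1 eye. Over all lit against all dark times Myo7a was lower by 0.19 (SE 0.04, adjusted p = 0.0041), kept in all 39 alternatives. Its group means under SC were 730 at 6 h and 577 at 10 h, and under LW 711 at 2 h and 626 at 6 h. Over all lit against all dark times 16.5% of all genes were called. Of the neighbours, 6 of 17 receptors and bridging proteins were called (3 higher and 3 lower in light) and 2 of 7 genes of phosphatidylserine exposure (both higher). So were 3 of 17 signalling and motor genes (1 higher and 2 lower, with Myo7a) and 2 of 15 phagosome genes (1 higher and 1 lower).

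The genes most like a member in their pattern were found by Pearson correlation of the 12 group means, over 14044 genes with a mean scaled count of at least 50. The points share libraries and scaling, so that the values are descriptions. Nearest to Gas6, the member with the smallest p between LW and SC, were Psmc4 (r = 0.94), Ddx19a (0.94) and Psmd4 (0.93). Nearest to Axl, the member with the smallest p of daily variation, were Btbd11 (0.94), Ppp1r3b (0.93) and Glud1 (0.90).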

How the data were processed

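Poly(A)-selected stranded RNA-seq of 24 whole eyes was analysed. The authors deposited 1 table of expected counts per gene, for which the labels name HISAT2 2.0.4, RSEM and build GRCm38.p6; no 0 occurs in it, and 43565 cells without a number were read as 0 expected counts. Mapping rates and counting settings are not given in the sources used here.

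Gene IDs were matched to RefSeq for 18891 of 19018 genes. Expected counts were TMM-scaled (trims of 30% of log ratios and 5% of levels) to the mean library total and analysed as log2(scaled count + 1). Genes that reached a scaled count of 1 in 2 or more libraries were fitted with limma 3.58.1 (trend and robust; R 4.3.3), with a mean for each of 12 groups and 12 residual degrees of freedom. The threshold was a Benjamini-Hochberg adjusted p of 0.05 over all 18233 genes. Fold changes are on the log2(scaled count + 1) scale. Per-kilobase levels used GENCODE exons. Intervals are 95%.

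The members, the gene lists and the tests were chosen with earlier results of these data known. Named are all 9 members and, of each list, the called genes by smallest p for LW minus SC, the daily courses and the first lit time; Myo7a in light, the contrasts of lit and dark times within a condition and those at a single time were added after values were seen. Alternatives were other scalings, filters, a pseudocount of 10, voom, a replicate term, and leaving out each eye, each time and the 2 eyes that held liver transcripts. The test was tested on simulated data. Figures were drawn with matplotlib 3.10.9.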

Additional observations from a re-analysis of the deposited data

Results flagged for a closer look

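For 4 genes of the neighbouring lists, the LW minus SC difference itself varied between the 6 times by a limma F test of the interaction, adjusted over all genes. No member of the 9 did. Myh9, the heavy chain of a non-muscle myosin used in phagocytic cups, had an adjusted p of 0.0025 and kept its call in all 39 alternatives. Its log2 difference was -0.29 at 6 h (group means of 5400 under LW and 6622 under SC) and 0.20 at 22 h (6471 and 5620), with an SE of 0.05 at each time.

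Itgb8 had an adjusted p of 0.017. Its difference was -1.10 at 10 h (33.5 under LW and 73.0 under SC) and 0.45 at 14 h (57.6 and 41.9), with an SE of 0.26, and the call was lost without the eyes of 2 h (adjusted p = 0.051), 10 h (0.054) or 14 h (0.069).

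Bcar1, an adaptor downstream of integrins and Ptk2, had an adjusted p of 0.042. Its difference was -0.24 at 6 h (1551 and 1831) and 0.17 at 22 h (1963 and 1740), with an SE of 0.06, and the call was lost in 17 of 24 fits without 1 eye and without the eyes of 22 h (adjusted p = 0.45). Map1lc3a, an LC3 gene, had an adjusted p of 0.043. Its difference was -0.41 at 18 h (1104 and 1465) and 0.18 at 10 h (1349 and 1194), with an SE of 0.09, and the call was lost in 17 of 24 fits without 1 eye (adjusted p up to 0.21, without replicate 2 of SC 18 h) and in 8 of 15 other alternatives, among them library totals (0.061), a pseudocount of 10 (0.055), no filter (0.059), no eyes of 18 h (0.50) and no eyes that held liver transcripts (0.071).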

How the results depend on the processing

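Each count was recomputed under 8 other settings of scaling, filter, pseudocount or model, without each of the 24 eyes, without the eyes of each time and without the 2 SC eyes that held liver transcripts. The count-based quasi-likelihood test that had been listed was not run, because the table's cells without a number keep it from being read as counts.

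Members called between LW and SC were 1 (Gas6) with library totals and 1 without 22 h, and 0 to 1 without 1 eye. For the variation of that difference and for the daily course under LW no alternative called a member (0 to 0). For the daily course under SC, 2 (Axl and Mfge8) were called with library totals, with the filter at a mean of 10, and without 6 h or 18 h; 0 were called without 10 h, without 14 h and without the 2 liver-bearing eyes, and 0 to 2 without 1 eye. At the first lit time the count was 0 without the 2 liver-bearing eyes and 0 to 1 without 1 eye. For lit against dark it was 0 without 2, 10 or 22 h, 2 without 14 h (Axl, Ptk2) or 18 h (Gas6, Ptk2), and 0 to 1 without 1 eye. Pairs of member and time were 0 with TMM without crystallins, with no filter, with the replicate block, without 2 h, without 10 h and without the 2 liver-bearing eyes, and 0 to 1 without 1 eye.

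Over all genes the LW minus SC count was 950 without 2 h (1196 to 2205 without 1 eye). Its variation gave 547, 600 and 474 without 2, 6 and 22 h (626 to 956). The daily course under LW gave 2203 and 2088 without 2 and 10 h (2438 to 3671), and under SC 1145 without 10 h and 1208 without the 2 liver-bearing eyes (1442 to 2042). The first lit time gave 229 without those 2 eyes (322 to 690), and lit against dark 1565 and 1506 without 2 and 10 h (2460 to 3197).

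The log2 difference of Axl between LW and SC changed sign, to -0.00346, -0.0078, -0.00861 and -0.00772 without 2, 10, 18 and 22 h and to -0.0101 without the 2 liver-bearing eyes, and ran from -0.0127 to 0.021 without 1 eye. Axl within LW at the first lit time ran from -0.153 to 0.00997. The causes were not tested. Replicate numbers did not pair the eyes: over 66 pairs of groups the deviations correlated at -0.05 to 0.24 (median 0.004), 1 of them over 0.1. With the replicate block 0 members were called between LW and SC, 1641 genes in all, and Mfge8 at 2 h (adjusted p = 0.053) and Lamp2 between LW and SC (0.054) lost their calls.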
